A study of Homo sapiens with 12 samples.

Results

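The adhesion molecules examined here are CD44 and 9 integrin subunits, namely the alpha subunits ITGA2B, ITGA4, ITGA5, ITGAM and ITGAV and the beta subunits ITGB1, ITGB2, ITGB3 and ITGB7. They were picked by gene symbol as 10 of the 58381 genes in the tables, and all 10 were found and passed the filter on low counts. The study sequenced polyadenylated RNA of HMC-1 cells, a human mast cell leukaemia line, in 12 libraries. The subline HMC-1.1 has V560G-KIT alone, its sister HMC-1.2 has D816V-KIT in addition, and HMC-1.3 was made from HMC-1.2 by CRISPR/Cas9 reversal of V560G-KIT and keeps a single D816V-KIT allele. HMC-1.3 was represented by 2 subclones, clone 1 and clone 2, so each edited group stands for 1 clone, in which the edit and the cloning cannot be told apart. All 4 groups carry a KIT mutation, and the labels name no drug treatment. Every group had 3 libraries from cultures plated side by side, so p-values measure only the spread between these wells.

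Integrins are receptors of one alpha and one beta chain that tie a cell to the extracellular matrix or to a neighbouring cell, and a chain usually reaches the surface only when paired. Beta 1 pairs with many alpha chains, beta 2 with the leukocyte alpha chains L, M and X, beta 3 with alpha IIb and alpha V, and beta 7 with alpha 4 and alpha E. Mast cells use alpha 4 beta 7, alpha 4 beta 1 and beta 2 integrins for homing and fibronectin and vitronectin receptors for matrix contact, and CD44 is a single-chain receptor for hyaluronan that is made in standard and variant splice forms.

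The upstream sequences of the pair of alpha subunits with the highest levels among the members, ITGA2B and ITGA5, are shown because the first stood highest of all and was higher in every other subline than in HMC-1.2, whereas the second was lower in clone 2. Each is the 250 bases before the RefSeq start in GRCh38.p14, written 5′ to 3′ on the gene's own strand, with matches of the letters GGGCGG (GC box) in capitals. The window of ITGA2B is chr17:44389650-44389899 and that of ITGA5 chr12:54419267-54419516, both on the minus strand.
ITGA2B: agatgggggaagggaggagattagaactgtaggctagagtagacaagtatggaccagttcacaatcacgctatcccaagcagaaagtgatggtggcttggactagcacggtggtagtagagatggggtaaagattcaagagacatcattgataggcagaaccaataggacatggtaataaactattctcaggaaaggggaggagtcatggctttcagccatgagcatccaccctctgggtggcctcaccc
ITGA5: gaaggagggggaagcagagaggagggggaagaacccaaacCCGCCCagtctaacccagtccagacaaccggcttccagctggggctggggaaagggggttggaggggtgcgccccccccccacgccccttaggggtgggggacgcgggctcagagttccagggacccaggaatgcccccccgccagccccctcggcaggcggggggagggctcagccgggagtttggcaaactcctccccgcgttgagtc
The window of ITGA2B had 48.8% G and C and that of ITGA5 70.0%. Besides GGGCGG, the letters GATAA of the GATA motif and TGACTCA of the AP-1 motif were searched, all on both strands, and no match overlapped another. None of these exact letters was found in the window of ITGA2B. In that of ITGA5, 1 GC box was found, 210 to 205 bases before the start on the opposite strand (-210 to -205). Other spellings of these motifs were not searched, so their absence is not shown. Of all 35116 windows in the table, 20.44% held GATAA, 4.20% TGACTCA and 42.64% GGGCGG. Windows were at hand for 8 of the 10 members, all but ITGB2 and ITGB3. In the first window of each gene, GC boxes were also present in CD44 (2), ITGAM (2) and ITGB1 (3), and in none of ITGA4, ITGAV and ITGB7. GATAA was met only in the second window of ITGAV, with 2 matches, and TGACTCA in none.

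The libraries held 29225900 to 43181402 expected counts, the RSEM estimates of fragments per gene. KIT was read at 346 to 469 FPKM (fragments per kilobase of transcript, scaled to the depth of the library) in all libraries, which does not check the alleles. Of 10 mast cell markers, 8 reached 1 FPKM in every library and MS4A2, the beta chain of the IgE receptor, stayed below 1 in all. The megakaryocyte and platelet markers PF4, PPBP, GP1BA, GP9 and VWF, whose cells also carry ITGA2B and ITGB3, each stayed below 1 FPKM in all 12 libraries. The 5 monocyte and macrophage markers summed to 14.6 to 20.6 FPKM in HMC-1.2 and 5.88 to 7.53 FPKM in the other groups, with CD14, CSF1R and MPO below 1 FPKM in all libraries. The keratin KRT8 stood at 459 counts in clone 2 replicate 3 and at 2 to 13 counts in the others, so results on clone 2 are also given without that library where it changed a call.

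The members spanned 661 to 991 FPKM at the top and 0 to 0.16 FPKM at the bottom, and their order by FPKM was the same in all 4 groups for the first 6 places. ITGA2B, CD44, ITGB1, ITGA5, ITGAM and ITGAV followed each other with no overlap between the libraries of neighbours. The other 4 members lay at or below 1.08 FPKM in every library, and among them ITGB2 overlapped ITGA4 in HMC-1.2, ITGB7 in clone 1 and both ITGB7 and ITGA4 in clone 2. ITGB3 was last in every group, apart from all the others.

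**Figure D1:**
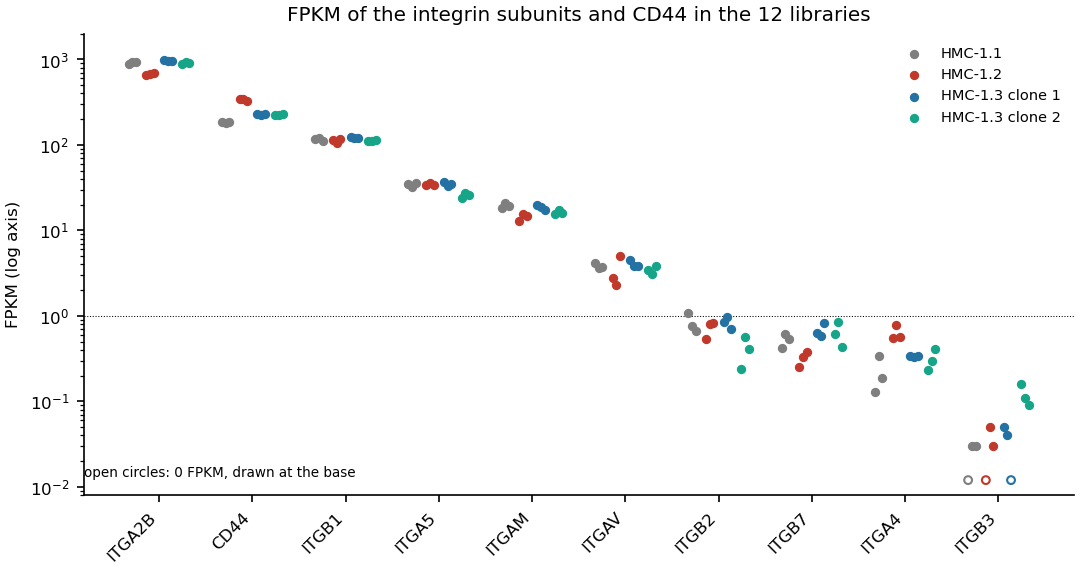
FPKM of the 10 members in each of the 12 libraries on a log axis, coloured by subline, with a dotted line at 1 FPKM and values of 0 drawn as open circles at the base. ITGA2B lies highest, from 661 to 991 FPKM, while ITGB3 lies lowest, from 0 to 0.16 FPKM.

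ITGA2B, the alpha IIb chain known from the fibrinogen receptor of platelets and also from early haematopoietic and mast cells, was the most abundant of the members in every library. It maps to chromosome 17 from 44372180 to 44389649 on the minus strand. Its level was 879, 934 and 925 FPKM in HMC-1.1, 661, 673 and 688 FPKM in HMC-1.2, 991, 965 and 963 FPKM for clone 1, and 890, 932 and 919 FPKM in clone 2. The 3 HMC-1.2 libraries were the lowest of the 12 and did not overlap the others. On counts, ITGA2B was higher than in HMC-1.2 by 0.51 (log2, standard error 0.02, adjusted p = 1.6e-11) in clone 1, by 0.46 (standard error 0.02, adjusted p = 8.2e-11) in clone 2 and by 0.46 (standard error 0.02, adjusted p = 8.4e-11) in HMC-1.1, edgeR's quasi-likelihood test. These are folds of 1.42, 1.37 and 1.37, below what a call required here, an adjusted p under 0.05 with over 1.5-fold. Clone 1 and clone 2 did not differ past the threshold in ITGA2B (log2 difference 0.06, 95% interval 0.00 to 0.11, adjusted p = 0.075).

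The beta chain that alpha IIb is known to pair with, ITGB3 (chromosome 17, 47253827 to 47313743, plus strand), was read by few fragments. Its expected counts were 0, 3.52 and 4 in HMC-1.1, 0, 4 and 3 in HMC-1.2, 7, 5 and 0 for clone 1, and 18, 16 and 14 in clone 2. The 3 libraries of clone 2 were the highest of the 12, yet at most 0.16 FPKM. ITGB3 reached the minimum of 0.27 CPM (counts scaled to the depth of the library) in no library outside clone 2, so it entered the test through clone 2 alone and had to differ there. Its counts are therefore a description, with no test, and the calls that edgeR made for it are no support for a difference.

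CD44 (chromosome 11, 35138882 to 35232402, plus strand) had its highest level in HMC-1.2 and fell in the 3 other groups. It stood at 348, 344 and 330 FPKM in HMC-1.2, 186, 179 and 186 FPKM for HMC-1.1, 232, 222 and 229 FPKM for clone 1, and 227, 225 and 228 FPKM in clone 2. All 3 HMC-1.2 libraries lay above all others, the 3 HMC-1.1 libraries lay below all others, and the clones overlapped. On counts the largest difference was that of HMC-1.1, at -0.86 (log2, 95% interval -0.92 to -0.80, adjusted p = 6e-14). Clone 1 gave -0.76 (95% interval -0.82 to -0.70) and clone 2 -0.61 (95% interval -0.67 to -0.55), and in clone 2 this interval took in differences under 1.5-fold. The clone 2 call was lost with glmTreat, which tests against 1.5-fold itself (adjusted p = 0.41). The ratio of the FPKM means gave -0.58 (clone 1), -0.59 (clone 2) and -0.89 (HMC-1.1), and clone 1 was therefore not called with limma on log2(FPKM + 0.1). Both clones stood above HMC-1.1, by 0.10 (adjusted p = 0.018) for clone 1 and 0.25 (adjusted p = 1.9e-06) in clone 2, each under 1.5-fold.

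Counts and FPKM of CD44 ordered the clones differently. Counts put clone 1 below clone 2 by 0.15 (log2 -0.15, 95% interval -0.21 to -0.09, adjusted p = 0.00023), while the ratio of FPKM means between them was 0.01. A count divided by its FPKM is proportional to the mean length of the transcripts to which RSEM assigned the reads, and was here set relative to the median gene of the library. This relative length of CD44 was 1.17, 1.21 and 1.13 in HMC-1.1, 1.13, 1.1 and 1.16 in HMC-1.2, 1.02, 1.04 and 1.02 for clone 1, and 1.12, 1.15 and 1.12 in clone 2. The 3 clone 1 libraries lay below all 9 others. The difference between clone 1 and HMC-1.2 was -0.14 (log2, standard error 0.03, adjusted p = 0.046, limma over 11701 genes), that from HMC-1.1 was -0.19 (adjusted p = 0.27) and that from clone 2 was -0.13 (adjusted p = 0.12). The adjusted value depends on how many other genes differ in a comparison, with 1.48% of genes called between clone 1 and HMC-1.2, 0.0% for clone 1 with HMC-1.1, and 0.239% for one clone with the other. The share was 0.256% for clone 2 against HMC-1.2, 3.53% for HMC-1.1 against HMC-1.2 and 0.0256% for clone 2 against HMC-1.1, with no member called in these. Of the 6 members with enough counts for this measure only CD44 in clone 1 against HMC-1.2 was called, and the call was lost without any one of 10 of the 12 libraries, all but HMC-1.1 replicates 2 and 3. Gencode 44 lists 25 coding transcripts of CD44, of 352 to 5431 bases, and which of them made the difference was not tested.

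**Figure D2:**
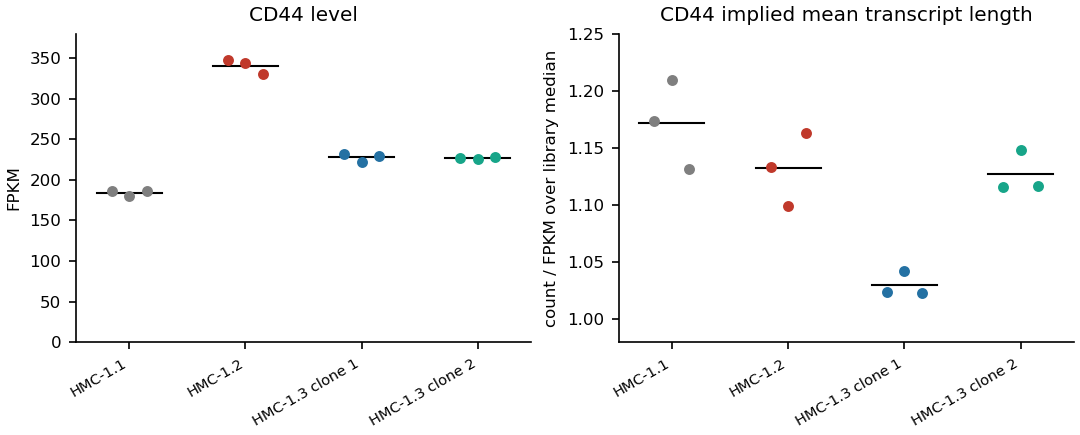
CD44 in each library by subline, as FPKM (left, axis from 0) and as the RSEM count divided by FPKM relative to the median gene of the library (right, axis not from 0), with horizontal lines at the means of 3 libraries. HMC-1.2 stands highest on the left, at 330 to 348 FPKM, and clone 1 lowest on the right, at 1.02 to 1.04.

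ITGB1 (chromosome 10, 32887273 to 33005792, minus strand), the shared beta chain of fibronectin, collagen and laminin receptors, was the most even of the members. Its level was 116 ± 3.91 FPKM (SD, n = 3) in HMC-1.1, 112 ± 4.94 in HMC-1.2, 121 ± 1.57 for clone 1 and 112 ± 0.401 in clone 2. The largest of its 6 differences on counts was 0.07 (log2, 95% interval 0.00 to 0.13, adjusted p = 0.081) between clone 1 and clone 2. No interval of ITGB1 against HMC-1.2 reached beyond 0.10 in either direction, so 1.5-fold lay outside these intervals.

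ITGA5 (chromosome 12, 54395261 to 54419266, minus strand), the alpha chain of the fibronectin receptor with beta 1, was lower in clone 2. It had 35.1, 32.2 and 35.4 FPKM in HMC-1.1, 34.1, 35.9 and 34.4 FPKM in HMC-1.2, 37.1, 33.0 and 35.4 FPKM for clone 1, and 24.1, 27.2 and 25.8 FPKM in clone 2. The 3 libraries of clone 2 did not overlap any other. Clone 2 differed by -0.48 (log2, standard error 0.04, adjusted p = 2.2e-08) from HMC-1.2 and by -0.33 (standard error 0.04, adjusted p = 5.1e-06) from HMC-1.1, and clone 1 exceeded it by 0.36 (standard error 0.04, adjusted p = 1.1e-06), all under 1.5-fold. On counts clone 1 and HMC-1.1 also lay under HMC-1.2 (log2 -0.12 and -0.15), whereas the ratios of FPKM means were 0.02 and -0.02.

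ITGAM (chromosome 16, 31259967 to 31332892, plus strand), the alpha M chain of the complement receptor CR3, was higher outside HMC-1.2. Its values were 13.03, 15.42 and 14.95 FPKM in HMC-1.2, 18.5, 20.67 and 19.23 FPKM for HMC-1.1, 20.02, 18.74 and 17.44 FPKM for clone 1, and 15.4, 17.24 and 16.16 FPKM in clone 2. HMC-1.2 overlapped clone 2 but neither HMC-1.1 nor clone 1. The differences from HMC-1.2 were 0.32 (adjusted p = 6.9e-06) in HMC-1.1, 0.34 (adjusted p = 2.7e-06) for clone 1 and 0.17 (adjusted p = 0.0035) in clone 2. Of the monocyte and macrophage markers, whose cells share ITGAM, 2 were tested against HMC-1.2, and 1 of them, CD68, was called, moving the other way. CD68 had 14.6 FPKM in HMC-1.2 and 4.43, 4.60 and 4.56 FPKM in HMC-1.1, clone 1 and clone 2. It made up most of the summed level of these markers, and their part in the result was not tested.

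ITGAV (chromosome 2, 186590010 to 186680901, plus strand), the alpha V chain of vitronectin receptors, held 22.1 to 25.5 CPM in HMC-1.1, 13.8 to 18.3 CPM in HMC-1.2, 21.8 to 25.7 CPM for clone 1 and 20.3 to 21.8 CPM in clone 2. The HMC-1.2 libraries were the lowest on this scale, with differences of 0.55 for HMC-1.1 (adjusted p = 4.4e-05), 0.57 for clone 1 (adjusted p = 2.4e-05) and 0.38 for clone 2 (adjusted p = 0.0016). On FPKM the groups overlapped, since HMC-1.2 had 2.80, 2.27 and 4.96 FPKM and replicate 3 was the highest of the 12. Clone 1 at 1.48-fold lay just short of a call, and was called without HMC-1.2 replicate 3 (log2 difference 0.66) or without clone 1 replicate 2 (0.63). HMC-1.1 at 1.46-fold was likewise called without HMC-1.2 replicate 3 (0.65) or without HMC-1.1 replicate 2 (0.60).

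The alpha and beta chains that carry leukocyte integrins with alpha 4, beta 2 and beta 7 were read by 10 to 69 counts per library, and here the differences were larger and the errors wider. ITGA4 (chromosome 2, 181457202 to 181538940, plus strand) had 69, 61 and 56 counts in HMC-1.2, 12, 16 and 28 for HMC-1.1, 22, 26 and 28 for clone 1, and 28, 18 and 53 in clone 2. Only clone 2 replicate 3, the library with KRT8, approached HMC-1.2, whose libraries were the highest. ITGA4 fell by 1.97 (log2, 95% interval -2.65 to -1.28, adjusted p = 6.8e-05) in HMC-1.1, by 1.48 (95% interval -2.14 to -0.82, adjusted p = 0.00056) for clone 1 and by 1.21 (95% interval -1.85 to -0.58, adjusted p = 0.0029) in clone 2. The ratios of FPKM means were smaller for the clones, at -0.91 (clone 1) and -1.02 (clone 2), with the clones in the other order, and -1.53 for HMC-1.1. The clone 2 call was lost with glmTreat, which tests against 1.5-fold itself (adjusted p = 0.069). The levels behind these falls were 0.22 to 0.63 FPKM in the means of the groups.

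ITGB7 (chromosome 12, 53191323 to 53207282, minus strand), the partner of alpha 4 in the gut-homing receptor for MAdCAM-1, went the other way. Its counts were 22, 12 and 18 in HMC-1.2, 40, 39 and 38 for HMC-1.1, 47, 36 and 56 for clone 1, and 30, 39 and 29 in clone 2. The HMC-1.2 libraries were below all others. ITGB7 rose by 1.23 (log2, 95% interval 0.65 to 1.80, adjusted p = 0.0009) for clone 1 and by 0.93 (95% interval 0.34 to 1.51, adjusted p = 0.0093) in HMC-1.1, the latter not called without HMC-1.2 replicate 2 (log2 difference 0.75, adjusted p = 0.05). In clone 2 the difference of 0.63 (95% interval 0.03 to 1.23) did not pass (adjusted p = 0.077), but did without clone 2 replicate 3, the library with KRT8 (0.78, adjusted p = 0.047). Limma on log2(FPKM + 0.1) also called clone 2 (0.77, adjusted p = 0.021), but it did not call HMC-1.1 (0.57, adjusted p = 0.07). The HMC-1.1 call was lost with glmTreat too (adjusted p = 0.28). The clones did not differ past the threshold in ITGB7 (0.60, adjusted p = 0.056), but did without clone 1 replicate 2 (0.76, adjusted p = 0.028). ZNF740, on the other strand across ITGB7, held 1351 to 1932 counts, far more than ITGB7, and did not pass the test against HMC-1.2 in either clone (log2 differences -0.02 and -0.01, adjusted p = 0.77 and 0.83).

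ITGB2 (chromosome 21, 44885953 to 44931989, minus strand), the beta chain common to the leukocyte integrins, fell in clone 2. Its counts were 59, 47 and 45 in HMC-1.1, 54, 32 and 48 in HMC-1.2, 64, 61 and 36 for clone 1, and 10, 15 and 18 in clone 2. The 3 clone 2 libraries were below all others, which overlapped. The fall in clone 2 was 1.93 (log2 -1.93, 95% interval -2.54 to -1.31, adjusted p = 3e-05) against HMC-1.2 and 1.86 (log2 -1.86, adjusted p = 7.7e-05) against HMC-1.1, and clone 1 exceeded clone 2 by 1.99 (95% interval 1.39 to 2.60, adjusted p = 1.9e-05). Clone 1 and HMC-1.2 differed by 0.07 (95% interval -0.45 to 0.59). On FPKM the difference was smaller, with a log2 ratio of means of -0.83 between clone 2 and HMC-1.2, and 0.57 FPKM in clone 2 replicate 2 overlapped the 0.54 FPKM of HMC-1.2 replicate 1.

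**Figure D3:**
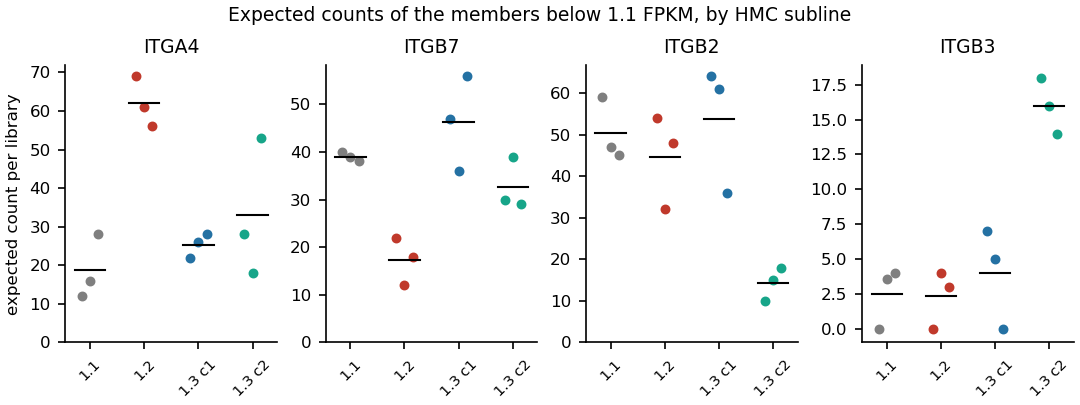
Expected counts of ITGA4, ITGB7, ITGB2 and ITGB3 in each library by HMC subline (1.3 c1 and 1.3 c2 are the clones), with horizontal lines at the means of 3 libraries and a separate linear axis per gene. HMC-1.2 stands apart in ITGA4 (56 to 69 counts) and ITGB7 (12 to 22), and clone 2 in ITGB2 (10 to 18) and ITGB3 (14 to 18).

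Read over the 10 members, setting clone 1 beside HMC-1.2 gave 3 calls (20.0% over the whole set of 15944 tested genes), 1 higher (11.8% of all genes) and 2 lower (8.18%). In clone 2 against HMC-1.2, 4 were called (16.5% of all genes), 1 higher (7.98%) and 3 lower (8.51%), and 5 without clone 2 replicate 3. The 1 higher was ITGB3, which was tested only because clone 2 was high, so that 3 calls did not rest on the filter. Setting HMC-1.1 beside HMC-1.2 gave 3 calls (17.6% of all genes), 1 higher (10.1%) and 2 lower (7.52%). By adjusted p alone, 7 members passed for clone 1, 8 for clone 2 and 7 for HMC-1.1, beside 59.4%, 48.5% and 53.7% of all genes, with ITGB3 among the 8. These 3 comparisons share the HMC-1.2 libraries. The median log2 differences of the members were 0.20, 0.07 and -0.03, and those of all genes 0.01, 0.00 and 0.01.

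The comparisons without HMC-1.2 had fewer calls. Between clone 1 and HMC-1.1 edgeR called 0 of 10 members (1.01% of all genes), 2 had an unadjusted p under 0.05, and DESeq2 and limma on either FPKM scale also called 0. Between clone 2 and HMC-1.1, 2 members were called (8.19% of all genes), and the same number was called between the clones (12.6% of all genes). In each of these, the members called were ITGB2 and ITGB3, and since ITGB3 was tested only because clone 2 was high, 1 call in each did not rest on the filter.

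**Figure D4:**
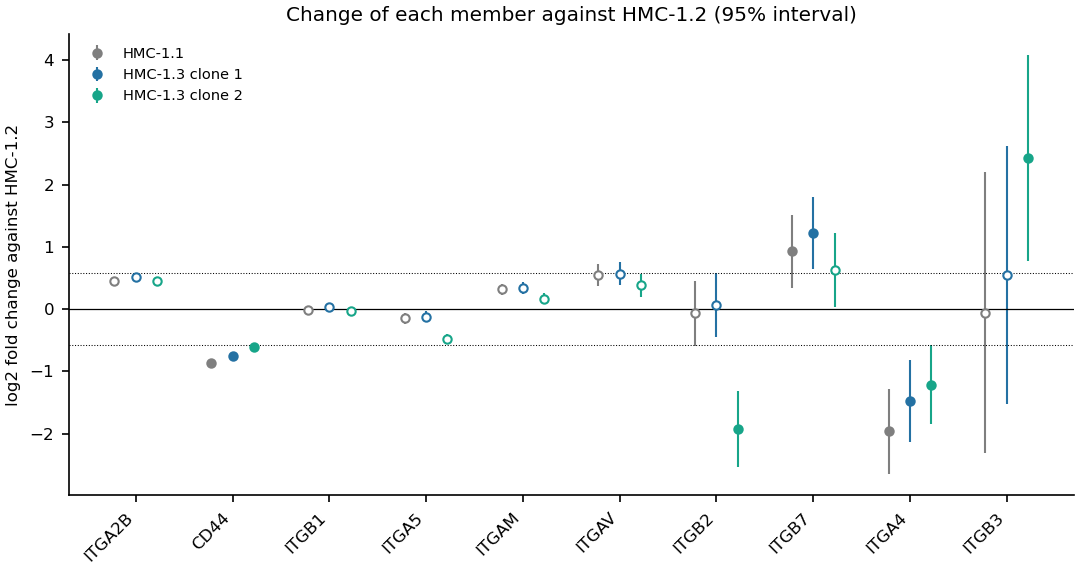
Log2 fold change of each member against HMC-1.2 on counts (points) with 95% intervals (lines), for HMC-1.1 and both HMC-1.3 clones, filled where called and open where not, with dotted lines at 1.5-fold. CD44 and ITGA4 lie below the lower line in all 3 groups, and ITGB2 in clone 2 alone (-1.93). ITGB3 is filled in clone 2, through which alone it passed the filter.

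The other 17 integrin subunits were examined to set the members among their partners. Of these, 12 were tested, and 1 rose and 2 fell in clone 1, 2 rose and 2 fell in clone 2, and 1 rose and 2 fell in HMC-1.1. Of all genes tested, 11.8% were higher and 8.18% lower for clone 1, 7.98% and 8.51% for clone 2, and 10.1% and 7.52% for HMC-1.1, and with 12 genes nothing is read as particular to the list. ITGAL, the alpha L chain of LFA-1, had 119, 127 and 129 FPKM in the HMC-1.2 libraries and fell to 1.60, 1.51 and 1.46 FPKM for clone 1 (log2 -6.27, standard error 0.05, adjusted p = 2e-21) and 1.93, 1.40 and 1.22 FPKM in clone 2 (log2 -6.42, adjusted p = 1.5e-21), and stood at 1.41, 1.24 and 0.94 FPKM in HMC-1.1. HMC-1.2 was the only one of the 4 groups with ITGAL above 2 FPKM, and in the same libraries ITGB2, its partner chain, was at 0.54 to 0.82 FPKM. ITGB5, the beta chain that joins alpha V in a vitronectin receptor, had 41.5 ± 0.639 FPKM (SD, n = 3) as its HMC-1.2 level and rose to 64.2 ± 3.81 for clone 1 (log2 0.66, adjusted p = 4.2e-10) and 84.3 ± 4.62 for clone 2 (log2 1.08, adjusted p = 6e-13), and was 66.9 ± 5.08 FPKM in HMC-1.1. ITGAX, another partner of beta 2 and named here after its values were seen, had 15.02 to 22.05 FPKM over the 12 libraries.

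Summed over the 18 alpha subunits in the list, ITGA2B made up 74.0 ± 0.222% of the alpha FPKM in HMC-1.2 and 88.8 ± 0.367%, 88.8 ± 0.153% and 89.8 ± 0.203% in HMC-1.1, clone 1 and clone 2. ITGAL made up 13.7 ± 0.302% in HMC-1.2 and at most 0.195% in any other library. Over the 8 beta subunits, ITGB1 made up 71.7 ± 0.527% in HMC-1.2, 62.6 ± 2.42% for HMC-1.1, 64.2 ± 1.07% for clone 1 and 56.4 ± 1.1% in clone 2, and nearly all of the rest was ITGB5. The alpha sum was 4.999 to 6.062 times the beta sum in the 12 libraries. Against the 12 alpha chains that can pair with beta 1, whose FPKM summed to 44.1 to 58.3 in a library, ITGB1 was 1.88 to 2.54 times as high.

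**Figure D5:**
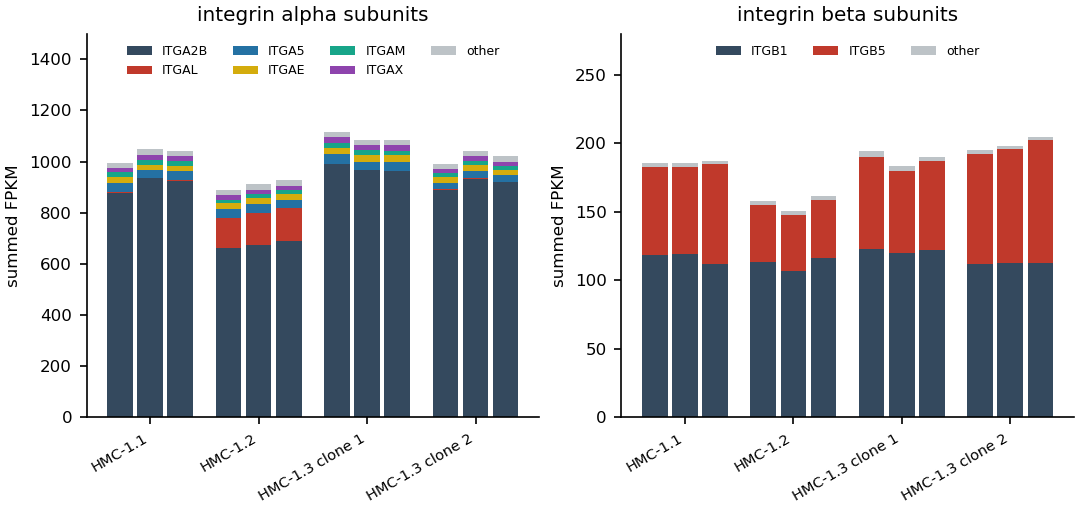
Summed FPKM of the integrin alpha (left) and beta (right) subunits, 1 bar per library and 3 per subline, stacked by gene. ITGA2B fills most of every alpha bar, ITGAL shows only in the HMC-1.2 bars, and ITGB1 with ITGB5 fills nearly all of every beta bar.

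Of 39 genes of integrin activation and the adhesion complex, 33 were tested, and 3 rose and 4 fell in clone 1, 5 rose and 6 fell in clone 2, and 4 rose and 3 fell in HMC-1.1. The shares of all genes were 11.8% higher and 8.18% lower for clone 1, 7.98% and 8.51% for clone 2, and 10.1% and 7.52% for HMC-1.1, and nothing is read as particular to this list either. FERMT3, kindlin-3, which turns on beta 1, beta 2 and beta 3 integrins of blood cells, had 122, 129 and 126 FPKM in the HMC-1.2 libraries and fell to 3.52, 3.44 and 2.37 FPKM for clone 1 (log2 -5.53, adjusted p = 1e-19) and 1.44, 1.1 and 0.76 FPKM for clone 2 (log2 -7.78, adjusted p = 3.5e-20). FERMT2, kindlin-2, the form of other tissues, rose from 5.92 ± 0.273 FPKM (SD, n = 3) to 18.4 in clone 1 (log2 1.58) and 14.4 in clone 2 (log2 1.24). RASGRP2, an exchange factor for RAP1, and ITGB1BP2, a binding protein of the beta 1 tail, fell in both clones (log2 -0.86 and -1.18, and -2.11 and -1.72), and RASGRP4, an exchange factor of mast cells, rose (3.99 and 1.56). In HMC-1.1 each of these moved the same way (log2 -5.80 for FERMT3, 1.504 for FERMT2, -1.002 for RASGRP2, -2.17 for ITGB1BP2 and 3.93 for RASGRP4). The median log2 difference of the list was 0.04 for clone 1 and 0.10 in clone 2.

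The same shares, 11.8% and 8.18% for clone 1 and 7.98% and 8.51% for clone 2, apply to the lists that follow. Among 16 membrane partners of integrins, all tested, 0 rose and 2 fell for clone 1 and 2 rose and 2 fell in clone 2. The tetraspanin CD82 fell from 103 FPKM to 54.0 and 48.8 FPKM, and PLAUR, the urokinase receptor, from 44.3 FPKM to 28.5 and 27.0 FPKM. Of 31 integrin ligands, 17 were tested, and 2 rose and 2 fell in clone 1, against 3 and 1 in clone 2. ICAM4, which binds leukocyte integrins, rose from 21.1 FPKM to 42.1 and 37.3 FPKM. Of 32 genes around CD44 and hyaluronan, 18 were tested, with 0 higher and 2 lower in each clone. The 2 were CEMIP2 (39.01 FPKM in HMC-1.2, 17.1 and 20.2 FPKM in the clones) and HYAL3 (41.0 FPKM, then 16.5 and 28.5 FPKM).

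Among the genes whose log2 CPM over the 12 libraries was most like that of CD44, out of 9737 genes averaging 10 CPM or more, were MPP1 (Pearson r = 0.998), ADORA2A (0.996), and CCNA1 and TNFAIP8 (0.995 each). The 12 points share 4 groups of 3 libraries. MPP1 had a mean of 74.6 FPKM for HMC-1.2, 26.2 for HMC-1.1, 28.7 for clone 1 and 35.9 for clone 2.

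Markers of other cells were few. The mast cell list had 1 gene higher and 4 lower in each clone, with CPA3 higher (3.31 FPKM in HMC-1.2, 7.52 and 10.9 FPKM in the clones) and the near-identical tryptase genes TPSAB1 and TPSB2 lower, among which reads can be split. Among the other lists, genes of at least 1 FPKM in a group that both clones shared were CD68 of the monocyte list lower (14.6 FPKM, then 4.60 and 4.56 FPKM), CD2 of the T cell list higher (0.133 FPKM, then 3.33 and 0.883 FPKM) and HBB of the erythroid list higher (0.53 FPKM, then 2.74 and 2.31 FPKM). The T cell genes CD3D, CD3E and CD3G, the B cell genes MS4A1 and CD79A, the erythroid gene ALAS2, and COL1A1, COL1A2 and EPCAM of the stromal and epithelial list stayed below 1 FPKM in all libraries. The part of these genes in the members' differences was not tested. In bulk RNA, fewer cells with a message and less of it per cell cannot be told apart.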

How the data were processed

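Polyadenylated RNA was sequenced in 12 libraries, 3 for each of 4 groups. Expected counts and FPKM per gene were deposited by the authors, who per the labels trimmed reads with cutadapt (2.10), aligned them with STAR (2.5.3) and quantified genes with RSEM (1.3.0), with Picard and DESeq2 also listed. RSEM shares ambiguous reads between genes, and 7.39% of the counts were not whole. The strand setting is not given in the sources used here. The labels mark 3 libraries as resent, HMC-1.2 replicate 1, clone 1 replicate 3 and clone 2 replicate 1.

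Expected counts were rounded and tested with edgeR (4.0.16, R 4.3.3), TMM scaling and the quasi-likelihood test over all groups, for genes with 0.27 CPM or more in 3 libraries. P-values were adjusted over all 15944 genes by Benjamini and Hochberg, and a call needed an adjusted p under 0.05 with over 1.5-fold. The ratio of count to FPKM was tested with limma (3.58.1) over 11701 genes with a mean of 100 counts or more, a call needing over 0.1 on the log2 scale. DESeq2 (1.42.0), limma on log2(FPKM + 1) and log2(FPKM + 0.1), glmTreat and leaving out each library were alternatives. On simulated counts for clone 1 against HMC-1.2 over 15944 genes, 180 of 200 genes shifted by 1 on the log2 scale were recovered, with 1 false call. The members and lists were chosen with earlier results of these data known. Beyond the members, the text names from each list up to 3 genes that rose and 3 that fell furthest against HMC-1.2, averaging the clones, among those called the same way in both with at least 1 FPKM in a group, and the 5 genes most like CD44, which also had the widest range of group means among members averaging 10 CPM or more. Some genes of the lists are not reported here. Positions are from Gencode 44 on GRCh38 and upstream sequences from RefSeq on GRCh38.p14.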

Additional observations from a re-analysis of the deposited data

Results flagged for a closer look

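ITGB2 differed between the HMC-1.3 clones in its change against HMC-1.2. The difference, clone 1 minus clone 2, was 1.99 (log2, edgeR's quasi-likelihood test, 95% interval 1.39 to 2.60, adjusted p = 1.9e-05), with 64, 61 and 36 counts in the clone 1 libraries and 10, 15 and 18 in those of clone 2, and all 3 of one above all 3 of the other. On FPKM it was smaller, with a log2 ratio of means of 1.05 between the clones. Limma on log2(FPKM + 1) gave 0.39, under 1.5-fold and not called. For ITGB3 the fitted difference was -1.89, with at most 7 counts in a clone 1 library and 14 to 18 in those of clone 2. ITGB3 passed the filter on low counts through clone 2 alone, so it had to differ there and the value is a description with no test.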

How the results depend on the processing

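Across 22 alternatives for counts and 15 for the length measure, no difference of a member turned its direction where it was called. Limma on log2(FPKM + 1) compresses genes near 1 FPKM. With it, the members called against HMC-1.2 numbered 0 for clone 1, 1 for clone 2 and 1 for HMC-1.1 (CD44 in both of the last). It called 0 in clone 2 against HMC-1.1 and 0 between the clones. CD44 in clone 1 had a mean of 228 FPKM, far above that range. Its difference from HMC-1.2 was -0.58 on this scale and on log2(FPKM + 0.1), under 1.5-fold and not called on either. With glmTreat, which tests against 1.5-fold itself, 1 member, ITGB2, was called in clone 2 against HMC-1.2, in clone 2 against HMC-1.1 and between the clones, and over all genes clone 1, clone 2 and HMC-1.1 then had 1932, 1612 and 1618 calls against HMC-1.2 in place of 3193, 2630 and 2803. With limma on log2(FPKM + 1) these were 1902, 1453 and 1514. Clone 2 against HMC-1.1 had 1306 calls over all genes, 552 with glmTreat and 566 with that limma setting, and clone 1 against clone 2 had 2013, 837 and 969. Leaving out 1 library at a time gave, against HMC-1.2, 3 to 4 members for clone 1, 3 to 5 for clone 2 and 2 to 4 for HMC-1.1, then 0 in clone 1 and 1 to 3 in clone 2 against HMC-1.1, and 1 to 2 between the clones. The counts in comparisons with clone 2 can include ITGB3, which passed the filter through clone 2 alone. The length call of CD44 became 0 with no subtraction of the library median (adjusted p = 0.053) and with the replicate block (adjusted p = 0.095), and ranged over 0 to 1 without 1 library. Of 18 same-numbered pairs 0 correlated above 0.1, so the numbers were not taken to pair the libraries. As a hint the other way, 8 of 12 libraries lay closest to their own number. The replicate block moved no count of members called on expression. Between clone 1 and HMC-1.1, calls over all genes went from 161 to 87 with DESeq2, to 9 with glmTreat, to 61 with limma on log2(FPKM + 1) and to 107 without clone 1 replicate 2. The cause of these changes was not tested beyond the construction of each alternative. Genes with few counts, ITGA4, ITGB2, ITGB3 and ITGB7, are limited by depth.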
